A study of Mus musculus with 6 samples.

Results

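Histones are the proteins around which DNA is wound. Pairs of the core histones H2A, H2B, H3 and H4 form the nucleosome, and the linker histone H1 binds the DNA where it enters and leaves. Most of these proteins are encoded by many near-identical genes in clusters, named Hist followed by the number of the cluster. The Hist genes were described here by class in lungs of Zpbp2 knock-out (KO) mice and wild type (WT) mice. The members were all rows of the count table whose symbol begins with Hist, a cluster number and h, and which held at least 10 reads summed over the 6 libraries. Of 71 such rows, 34 qualified, out of 47069 rows in the whole table. They comprised 4 H1, 6 H2A, 10 H2B, 4 H3 and 10 H4 genes.

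The samples were lungs of adult mice taken at Zeitgeber time (ZT) 10, with 10 hours elapsed since lights on, as 1 library for each of 3 WT mice (WT4, WT5 and WT6) and 3 KO mice (KO4, KO5 and KO6). WT mice were C57BL/6J. KO mice were of the B6.129S7-Zpbp2tmZuk/Mmjax strain and carried a germline deletion covering part of the promoter and exons 1 to 3 of Zpbp2, on a C57BL/6J background, so every cell type of the lung carried it, and KO and WT mice came from one colony. The labels do not give the sex of each mouse, and no group received a treatment. Zpbp2 itself was counted at 1, 2 and 2 reads in WT mice and at 0 in each KO mouse, all under the smallest number taken as detected, 3 reads.

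Most Hist genes are replication-dependent: their RNA is made during S phase, when DNA is copied, and ends in a short stem-loop in place of a poly(A) tail. The stem-loop is bound by the protein Slbp, which is needed for processing, export and translation. Some Hist genes are also known to give longer RNAs with a poly(A) tail, chiefly in cells that have stopped dividing. The labels name a stranded mRNA kit, which selects RNA by its poly(A) tail, so RNAs that end at the stem-loop are captured poorly. How much of each gene's RNA carried a tail was not measured.

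The stem-loop is typical of the replication-dependent genes and is shown for members that cover its 5 forms here. The letters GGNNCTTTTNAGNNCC, with the last 6 bases the reverse complement of the first 6, were searched on the sense strand of GENCODE transcripts. They were found in 26 of the 34 members and in 50 of 55450 annotated genes (0.0902%), of which 44 carried Hist symbols. Capitals mark the 16 bases of the stem and loop.
Hist1h3d: ccaaaGGCTCTTTTCAGAGCCacccccgtt
Hist1h2ad: acaaaGGCTCTTTTCAGAGCCatccacttc
Hist1h4h: ccaaaGGCCCTTTTCAGGGCCgcccacatt
Hist2h4: ctaacGGCCCTTTTTAGGGCCaaccacagt
Hist1h2bb: ccaaaGGCTCTTTTAAGAGCCacccacact
Hist1h4j: ctaaaGGTCCTTTTCAGGACCaccacatct

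The form of Hist1h3d and Hist1h2ad was shared by 15 members from the H1, H2A, H2B and H3 classes. The form of Hist1h4h stood in 5 members, all of them H4 genes, and that of Hist2h4 in 2, the other being Hist1h4i. The form of Hist1h2bb stood in 3 members, and that of Hist1h4j in no other. In GRCm38, the stem-loop of Hist1h3d lies at chr13:23576244-23576259 and that of Hist1h2ad at chr13:23574895-23574910, on the plus strand in each case. The 8 members whose model lacked a stem-loop included Hist1h2bc and Hist2h2be, 2 of the 5 members with the most reads. They also included 3 whose transcript model holds the coding sequence only. Hist1h2bc is modelled with 2 exons over 8710 bases. In 24 of the 26 members with a stem-loop the RefSeq gene model ends 4 to 8 bases after it, while the GENCODE model of 18 of these runs on for more than 60 bases.

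In summed expression, the core classes were lower in KO lungs, while the groups overlapped for the linker class, nearly all of which was Hist1h1c. Expression is given in CPM, read counts relative to the TMM-scaled size of the library, and class sums are descriptions with no test, since a sum over chosen members was not tested. The H2B members summed to 75.2, 78.7 and 76.0 CPM in WT mice and to 53.1, 53.8 and 57.1 CPM in KO mice (in the order of the mouse numbers, here and in all that follows). The KO mean was 28.7% under the WT mean, with 54.7 ± 2.11 against 76.6 ± 1.85 CPM (SD, n = 3). No KO lung reached the lowest WT lung.

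The H2A members summed to 17.4, 16.4 and 18.1 CPM in WT and 13.3, 13.95 and 14.5 CPM in KO lungs, 19.6% lower. The H3 members summed to 2.78, 2.92 and 3.01 CPM in WT and 1.52, 1.41 and 1.53 CPM in KO lungs, 48.9% lower. The H4 members summed to 6.84, 7.14 and 6.11 CPM in WT and 3.47, 4.36 and 4.39 CPM in KO lungs, 39.1% lower. The groups did not overlap in any of these classes. The H1 members summed to 45.6, 48.3 and 54.6 CPM in WT and 52.0, 44.6 and 52.8 CPM in KO lungs, and these ranges overlapped. The core members of all classes together summed to 102, 105 and 103 CPM in WT and 71.4, 73.5 and 77.5 CPM in KO lungs, 28.4% lower.

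**Figure D1:**
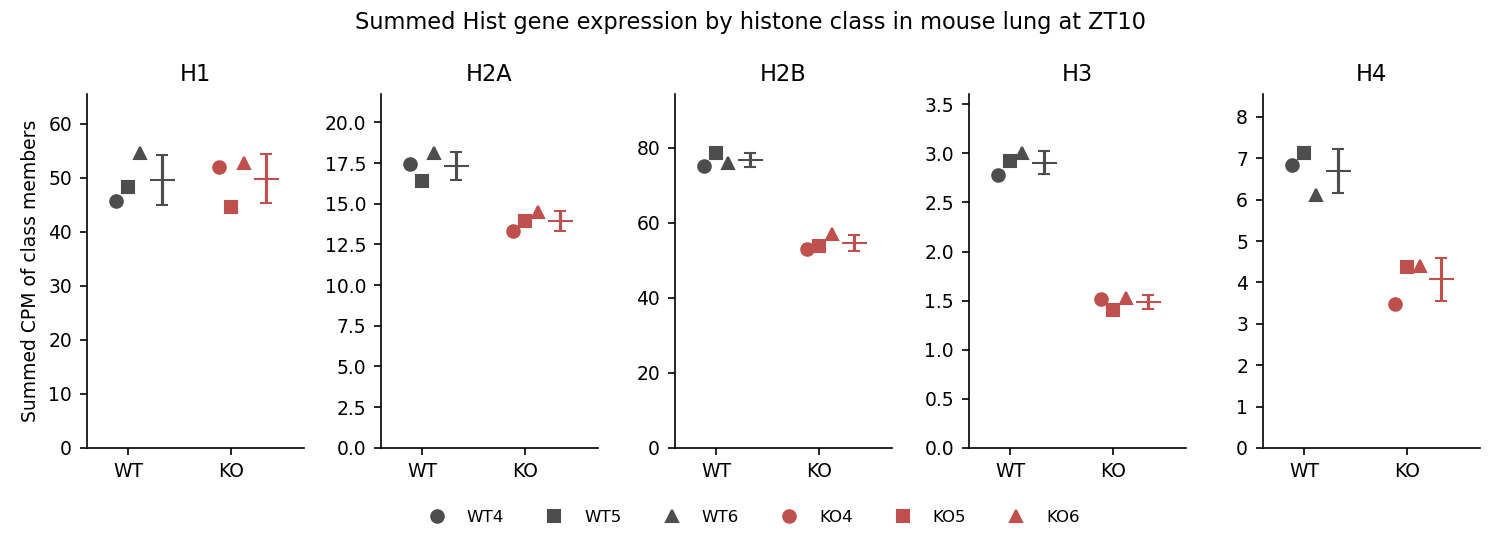
Summed CPM of the Hist genes of each histone class (vertical axes from 0) in each WT and KO lung, with the mean and SD of each group to the right of its points. The KO lungs lie below all WT lungs for H2A, H2B, H3 and H4, and overlap with them for H1.

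The class sums rest on few genes. Hist1h1c and Hist1h2bc held 67.5% of the members' reads, and within their classes Hist1h1c held 97.7%, Hist3h2a 91.4%, Hist2h3c2 71.9%, Hist1h2bc 68.7% and Hist1h4i 26.0%. Without Hist1h1c, the H1 sum was 1.57, 1.29 and 1.29 CPM in WT and 0.733, 0.881 and 1.19 CPM in KO lungs, 32.7% lower, so the overlap of the linker class was that of this gene. Without Hist3h2a, the H2A sum was 53.2% lower in KO lungs, at 0.867 ± 0.0789 against 1.85 ± 0.140 CPM. Without Hist1h2bc, the H2B sum was 15.9% lower, at 18.3 ± 1.79 against 21.8 ± 1.12 CPM. The H3 sum without Hist2h3c2 was 70.1% lower and the H4 sum without Hist1h4i 44.5% lower. The groups did not overlap in any of these cases. Together the members made up between 0.0120% and 0.0154% of the reads of a library. A lower sum in lung tissue cannot tell fewer cells of a type from less RNA per cell.

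Single genes were tested with edgeR's quasi-likelihood test over 17037 genes that passed a filter on low counts, and were called at a Benjamini-Hochberg adjusted p of at most 0.05. The filter kept 18 of the 34 members. Of these, 10 reached its level (0.434 CPM, unscaled) in all 6 libraries. Hist1h3d, Hist1h2ad and Hist1h4m reached it in the WT libraries only and Hist3h2ba in the KO libraries only, so a difference between the groups was partly built into their being tested. Hist1h4k, in 3 WT libraries and 1 KO library, also leaned on the WT group. The test called 3 of the 18 members, Hist1h2bc, Hist1h3d and Hist1h2ad, each lower in KO lungs, and none higher. Over all genes tested, 6.39% were called, 2.67% lower and 3.72% higher. With a log2 fold change of at least 1.5 in size as a second condition, Hist1h3d and Hist1h2ad remained. Over all genes, 0.0646% were lower by both conditions and 0.575% higher. Hist1h3d and Hist1h2ad passed the filter through the WT libraries only, so their count cannot be weighed against that share.

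Beyond the calls, the members were counted in sets that did not rest on passing the filter through 1 group. Among the 10 that reached its level in all libraries, the log2 fold change was below 0 for 9, against 50.2% of all genes that did so. In 7 of the 10 the unadjusted p was under 0.05 with KO lower, against 12.1%, and in 8 the CPM ranges did not overlap with KO lower, against 16.2%. Over all 34 members, tested or not, the mean CPM was lower in KO lungs for 29, against 47.4% of all rows with at least 10 reads. The groups did not overlap in 14 of the 34 with KO lower, against 13.1% of such rows, and in 1 with KO higher, Hist3h2ba, against 15.7%. Members share sequence and gene clusters and are not replicates of one another.

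**Figure D2:**
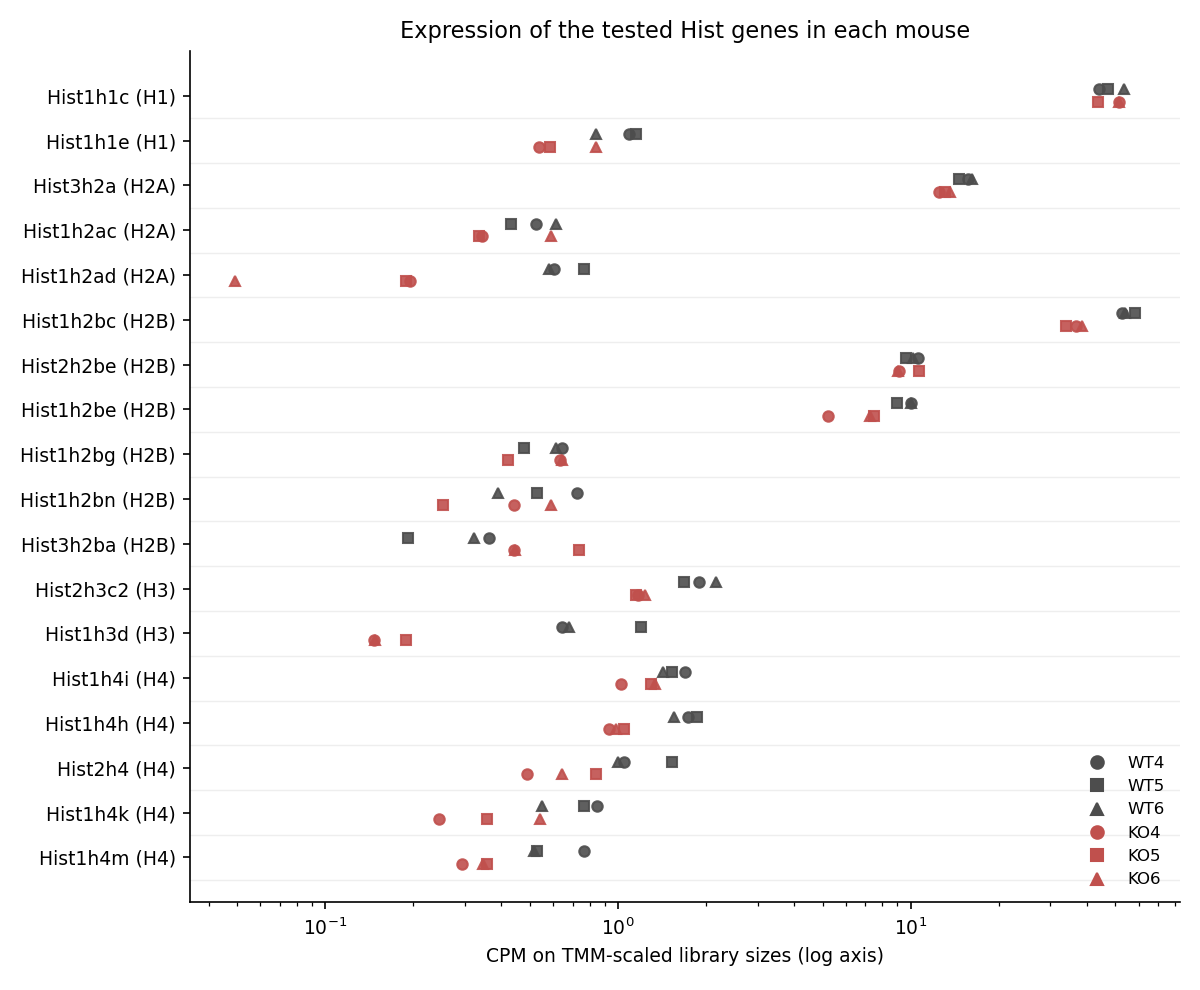
CPM on TMM-scaled library sizes (log axis) of the 18 tested Hist genes in each lung, ordered by class and by mean CPM within it. Most genes have the KO points to the left of the WT points, with Hist1h1c, Hist1h2ac, Hist2h2be, Hist1h2bg and Hist1h2bn mixed and Hist3h2ba reversed.

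Among H2B genes, Hist1h2bc had the most reads, 1305, 1215 and 1666 in WT lungs and 751, 1611 and 781 in KO lungs, where KO5 was sequenced to a greater depth than the others. These were 52.5, 58.2 and 53.9 CPM in WT and 36.7, 33.8 and 38.6 CPM in KO lungs. It fell by 0.60 on the log2 scale (SE 0.0694), or 33.8%, with an adjusted p of 0.0120 in edgeR's quasi-likelihood test. The gap between the lowest WT and the highest KO lung exceeded the range of either group.

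Per kilobase of exon, Hist1h2bc was also the member with the highest level in WT lungs, at 47.5 CPM per kb, ahead of Hist1h1c at 30.9 CPM per kb. In KO lungs the values of these genes were 31.5 and 31.3 CPM per kb. The next highest WT levels were those of Hist3h2a at 7.21, Hist2h2be at 3.86 and Hist1h4h at 3.65 CPM per kb.

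Hist2h2be, an H2B gene with no stem-loop in its model, had 10.5, 9.63 and 10.2 CPM in WT and 9.14, 10.7 and 9.04 CPM in KO lungs, and the groups overlapped. This was a log2 fold change of -0.069 (SE 0.108). Hist1h2be, an H2B gene, had 9.98, 8.96 and 10.03 CPM in WT and 5.23, 7.47 and 7.26 CPM in KO lungs, with no overlap. Its log2 fold change of -0.53 (SE 0.156) had an adjusted p of 0.0886 in edgeR's test. Of 13 alternative fits, DESeq2's Wald test alone placed it past the threshold, at an adjusted p of 0.0428, and the highest value was 0.206, without WT6. Hist1h2be overlaps Hist1h1e on the same strand, so reads in the shared part cannot be given to one of them.

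The remaining tested H2B genes were counted at no more than 35 reads in any library. Hist3h2ba, in the small cluster on chromosome 11, had 9, 4 and 10 reads in WT lungs and 9, 35 and 9 in KO lungs. Its CPM values were 0.362, 0.192 and 0.323 in WT and 0.440, 0.734 and 0.444 in KO lungs, so it was the only tested core member with all KO lungs above all WT lungs. The log2 fold change of 0.92 (SE 0.368) had an adjusted p of 0.173 in edgeR's test. Hist1h2bg and Hist1h2bn had log2 fold changes of -0.10 (SE 0.288) and -0.44 (SE 0.417), with overlapping groups.

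Among H3 genes, Hist1h3d had 16, 25 and 21 reads in WT lungs and 3, 9 and 3 reads in KO lungs. In CPM these were 0.644, 1.198 and 0.679 against 0.147, 0.189 and 0.148. It fell by 2.27 on the log2 scale (SE 0.383), or 79.3%, with an adjusted p of 0.0252 in edgeR's test. The KO lungs lay close together, and WT5 stood above the other WT lungs.

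Hist2h3c2, the H3 gene with the most reads, had 1.89, 1.68 and 2.17 CPM in WT and 1.17, 1.15 and 1.23 CPM in KO lungs, with no overlap. Its log2 fold change of -0.70 (SE 0.180) had an adjusted p of 0.0650 in edgeR's test. The H3 class without it summed to a log2 ratio of -1.74, of which Hist1h3d made up most. The other H3 members, Hist1h3e and Hist1h3f, held 11 reads each over the 6 libraries and were not tested.

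Among H2A genes, Hist1h2ad had 15, 16 and 18 reads in WT lungs and 4, 9 and 1 reads in KO lungs. In CPM these were 0.604, 0.767 and 0.582 against 0.196, 0.189 and 0.0494. It fell by 2.03 on the log2 scale (SE 0.410), or 75.5%, with an adjusted p of 0.0373 in edgeR's test. The highest KO lung was well under the lowest WT lung, and KO6 rested on a single read.

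Hist3h2a, the H2A gene with the most reads, had 15.7, 14.6 and 16.1 CPM in WT and 12.5, 13.1 and 13.6 CPM in KO lungs, without overlap. The log2 fold change of -0.25 (SE 0.0820) had an adjusted p of 0.120 in edgeR's test. It overlaps Trim17 on the same strand. Hist1h2ac, which faces Hist1h2bc across 250 bases, had 0.523, 0.431 and 0.615 CPM in WT and 0.342, 0.336 and 0.593 CPM in KO lungs, and the groups overlapped. This was a log2 fold change of -0.37 (SE 0.331), against -0.60 for Hist1h2bc, and the difference between the pair was not tested.

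None of the 5 tested H4 genes was called. All 5 had lower CPM in every KO lung than in any WT lung, against 16.2% of genes reaching the filter's level in all libraries. For Hist1h4m and Hist1h4k, which reached the filter's level in 0 and 1 KO libraries, this was partly built in by the filter. Hist1h4h had 1.73, 1.87 and 1.55 CPM in WT and 0.929, 1.05 and 0.988 CPM in KO lungs. Its log2 fold change of -0.78 (SE 0.180) had an adjusted p of 0.0502 in edgeR's test. Of 13 alternative fits, 4 placed it past the threshold, at 0.0416 to 0.0496, and 9 did not. Its adjusted p was 0.156 in DESeq2's Wald test, 0.122 with the replicate number as a block and between 0.0827 and 0.176 with 1 mouse left out. Hist1h4i, the H4 gene with the most reads, had 1.69, 1.53 and 1.42 CPM in WT and 1.03, 1.30 and 1.33 CPM in KO lungs, with a log2 fold change of -0.33 (SE 0.191).

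Hist2h4 had 1.05, 1.53 and 1.003 CPM in WT and 0.489, 0.839 and 0.642 CPM in KO lungs, with a log2 fold change of -0.80 (SE 0.289). Hist1h4k had 0.845, 0.767 and 0.550 CPM in WT and 0.244, 0.357 and 0.543 CPM in KO lungs, with a log2 fold change of -0.91 (SE 0.346). Hist1h4m had 0.765, 0.527 and 0.517 CPM in WT and 0.293, 0.357 and 0.346 CPM in KO lungs, with a log2 fold change of -0.83 (SE 0.293). The adjusted p of these H4 genes other than Hist1h4h lay between 0.135 and 0.323 in edgeR's test.

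The linker histone gene Hist1h1c, which is known to be expressed outside S phase too, had the most reads of all members. It had 44.0, 47.01 and 53.3 CPM in WT and 51.3, 43.8 and 51.6 CPM in KO lungs, so the groups overlapped. The fitted log2 fold change was 0.019 (SE 0.0947), with an adjusted p of 0.931 in edgeR's test. Hist1h1e had 1.09, 1.15 and 0.841 CPM in WT and 0.538, 0.587 and 0.839 CPM in KO lungs. Its groups were separated only by the third digit of WT6 and KO6, and its log2 fold change was -0.65 (SE 0.262), with an adjusted p of 0.174.

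**Figure D3:**
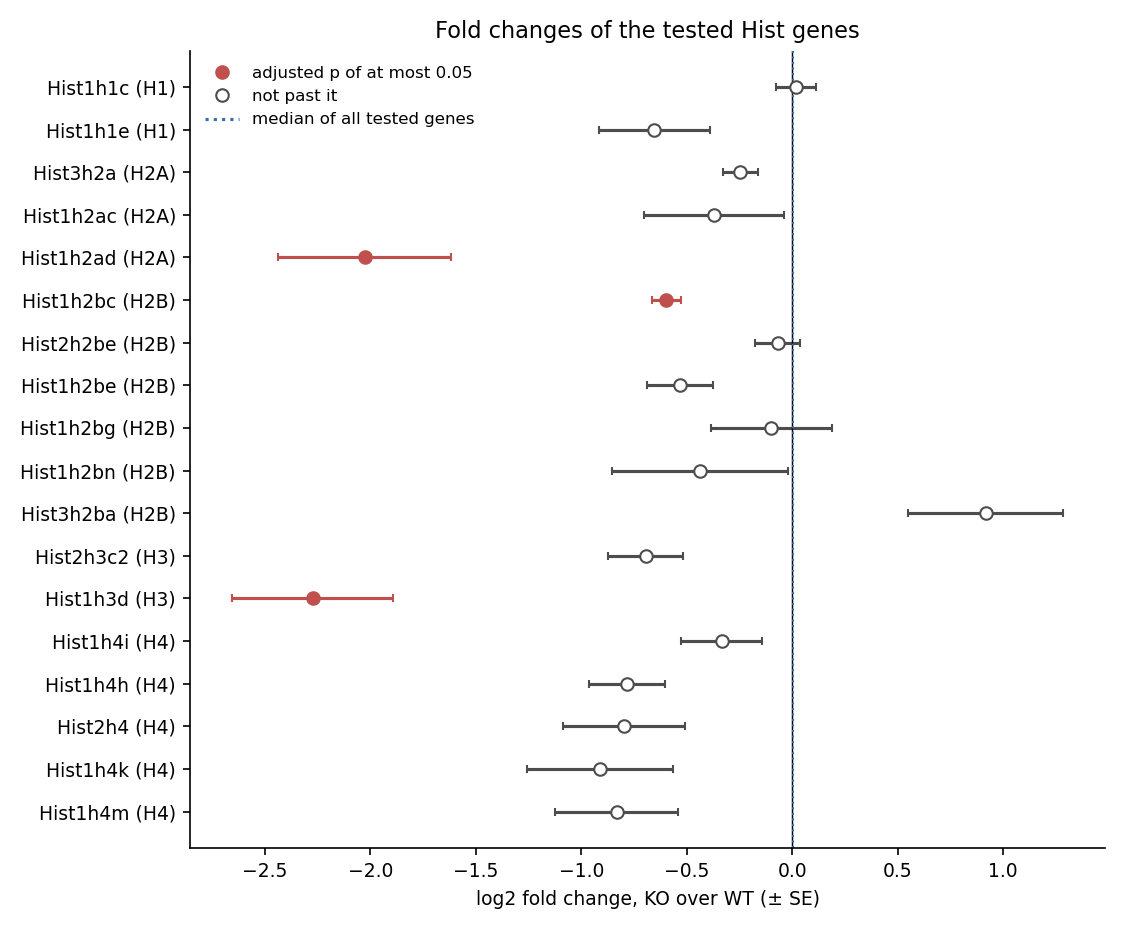
Log2 fold change of KO over WT (horizontal axis, with SE bars) for the 18 tested Hist genes in order of class and mean CPM, and the median of all tested genes (0.0030) as a dotted line. Hist1h3d (-2.27), Hist1h2ad (-2.03) and Hist1h2bc (-0.60), with filled points, are the genes called.

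The calls depended on single libraries. With 1 mouse dropped from the fit in turn, Hist1h2bc was called in 4 of 6 fits, with adjusted p of 0.0721 without WT5 and 0.0613 without WT6. Hist1h3d was called in 2 of them, without KO4 and without KO5, and had adjusted p of 0.0561 without WT4, 0.103 without WT5, 0.0734 without WT6 and 0.0734 without KO6. Hist1h2ad was called in none, with adjusted p from 0.0528 without KO4 to 0.148 without WT5. Each of these genes kept its sign throughout, with log2 fold changes from -0.64 to -0.55 for Hist1h2bc, from -2.45 to -1.96 for Hist1h3d and from -2.35 to -1.73 for Hist1h2ad. Without WT5, the test called 1 gene of 17545 in the whole table.

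The 16 members that were not tested held between 11 and 45 reads each over all libraries. Together they had 62, 51 and 95 reads in WT lungs and 34, 76 and 38 in KO lungs. In summed CPM these were 2.496, 2.44 and 3.07 in WT and 1.66, 1.59 and 1.88 in KO lungs, 35.9% lower and without overlap. The mean was lower in KO lungs for 13 of the 16. At this depth, 3 reads amount to between 0.0629 and 0.148 CPM, a floor that covers counting error only, and most of these genes lay near it.

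Of the 16, 2 had non-overlapping groups with KO lower, a share near the 13.1% of all rows with at least 10 reads. They were singled out after their values were seen. Hist1h4j had 7, 8 and 10 reads in WT lungs and 1, 3 and 2 in KO lungs. Hist2h2aa2 had 9, 4 and 19 reads in WT lungs and 2, 9 and 2 in KO lungs. Just inside the rule for members stood 4 genes with 11 reads, Hist1h2af, Hist1h3e, Hist1h3f and Hist1h4a, and just outside it Hist1h2al and Hist1h3b with 9. The 37 rows under the rule, 9 of them without a read, summed to 0.604, 1.05 and 1.07 CPM in WT and 0.538, 0.608 and 0.691 CPM in KO lungs, which overlapped.

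Hist genes differ little from one another in sequence, and the way reads that fit several copies were counted is not given in the sources used here. Of the stretches of 50 bases in each member's longest coding transcript, the share also found in a transcript of a gene elsewhere was 67.1% for Hist1h2ad, 30.6% for Hist1h2bc and 24.8% for Hist1h3d. It was over 50% in 9 members, 5 of them tested, and reached 100% in Hist2h2aa2, 89.8% in Hist1h4m and 86.4% in Hist1h2bn. It was 0 in Hist2h2be and Hist1h1b. Reads split between members of a class leave the class sum as it is, but several copies lie outside the members. The gene sharing most stretches was Gm20633 for Hist2h2aa2, Gm20634 for Hist2h3c2, Hist1h2ah for Hist1h2ad and Hist1h3b for Hist1h3d, none of them a member. Reads divided with these genes, or left out for fitting several places, would change the class sum.

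The copies on chromosome 3 show how far single rows can be taken. All 50-base stretches of Hist2h2aa2, searched on either strand, recur in Gm20633, and Gm20632 lies on the strand opposite Hist2h2aa2. Gm20633 rose by a log2 fold change of 0.89 with an adjusted p of 0.0452 in edgeR's test, and Gm20632 had a log2 fold change of 0.63 with an adjusted p of 0.111. Without the strand setting of the counting, reads of Hist2h2aa2 and of Gm20632 cannot be told apart. These genes were named after their values were seen.

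Of the members, 26 lie on chromosome 13 in a pair of blocks, 4 on chromosome 3, 3 on chromosome 11 and 1 on chromosome 6. The block with more members, chr13:23531050-23761230 in GRCm38, holds 19 members, 9 of them tested, and includes Hist1h2bc, Hist1h3d and Hist1h2ad. The other, chr13:21735064-22043676, holds 7 members, 4 of them tested and none called. The 3 tested members on chromosome 3 had log2 fold changes between -0.80 and -0.069. The members on chromosome 11 lie 39.6 Mb from Zpbp2.

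Within the block of 19 members, the members with the steepest falls were neighbours. Hist1h2ad (chr13:23574381-23574952) and Hist1h3d (chr13:23575763-23577011) lie on the plus strand with 810 bases between them. Hist1h2bg lies upstream of them at a distance of a few kilobases, and its groups overlapped. Hfe, which controls iron uptake, was the only other gene tested in that block, with a log2 fold change of 0.48 and an adjusted p of 0.0572 in edgeR's test.

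**Figure D4:**
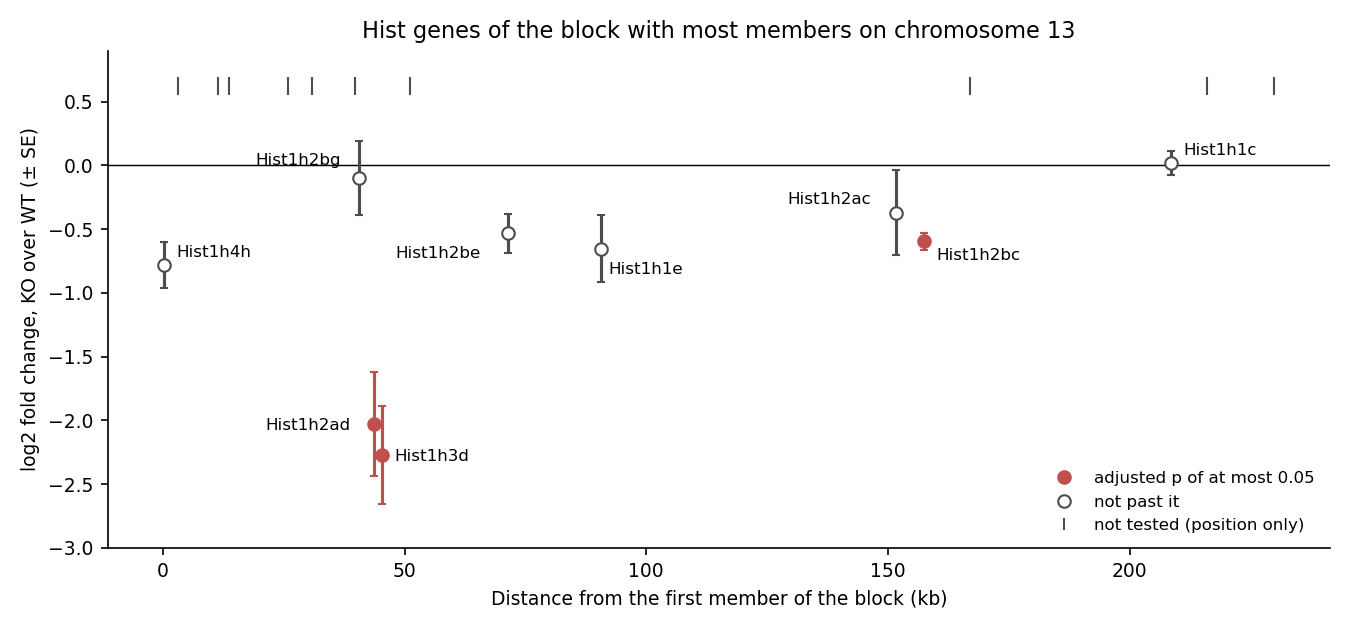
Log2 fold change of KO over WT (vertical axis, with SE bars) against distance in kb from the first member of the block of 19 members on chromosome 13, for its 9 tested Hist genes, with ticks for the 10 members not tested. Hist1h2ad and Hist1h3d sit together far below the other genes, and Hist1h1c sits next to 0.

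Promoters are shown for the neighbouring pair with the largest falls and for the stretch shared by Hist1h2ac and Hist1h2bc. The windows run from 250 bases before to 50 after the RefSeq start (GRCm38.p6), in the direction of the named gene. Capitals mark 3 motifs on either strand. The letters CCAAT are those of the CCAAT box. The TATA box was searched as TATAAA, and the octamer known from H2B promoters as ATTTGCAT. Hist1h3d lies at chr13:23575513-23575812, Hist1h2ad at chr13:23574131-23574430 (plus strand) and Hist1h2ac at chr13:23683910-23684209 (minus strand), where the window takes in the whole 250 bases between Hist1h2ac and Hist1h2bc.
Hist1h3d: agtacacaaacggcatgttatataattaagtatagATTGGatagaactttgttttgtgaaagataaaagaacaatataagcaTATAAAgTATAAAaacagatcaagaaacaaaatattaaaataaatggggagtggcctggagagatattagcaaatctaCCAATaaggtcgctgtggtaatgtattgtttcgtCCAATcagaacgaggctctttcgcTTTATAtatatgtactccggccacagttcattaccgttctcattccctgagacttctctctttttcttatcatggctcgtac
Hist1h2ad: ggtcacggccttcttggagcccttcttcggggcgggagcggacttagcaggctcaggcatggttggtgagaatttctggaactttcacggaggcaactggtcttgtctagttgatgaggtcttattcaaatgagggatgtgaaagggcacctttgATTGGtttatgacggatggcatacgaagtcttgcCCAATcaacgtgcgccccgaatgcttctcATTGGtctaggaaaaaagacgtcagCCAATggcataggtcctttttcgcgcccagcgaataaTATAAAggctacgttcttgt
Hist1h2ac: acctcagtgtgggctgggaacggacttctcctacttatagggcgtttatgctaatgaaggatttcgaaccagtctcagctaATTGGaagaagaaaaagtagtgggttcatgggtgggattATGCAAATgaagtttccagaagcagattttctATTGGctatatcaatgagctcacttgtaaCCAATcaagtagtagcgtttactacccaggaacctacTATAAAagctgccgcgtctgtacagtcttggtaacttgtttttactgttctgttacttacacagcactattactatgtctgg

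Hist1h3d and Hist1h2ad each held the CCAAT and TATA boxes and no octamer, while the window between Hist1h2ac and Hist1h2bc held all 3. Of the 34 members, 29 matched a promoter window by an exact RefSeq synonym. Hist1h2bc, Hist2h2be, Hist3h2bb-ps, Hist1h3f and Hist2h4 had none. CCAAT stood in the windows of 23 of the 29 (79.3%), against 37.4% of 32851 windows of all genes. It was in all windows of H1, H2A, H2B and H3 members and in 3 of 9 H4 windows. TATAAA stood in 17 of the 29 (58.6%) against 13.6%, and ATTTGCAT in 6 of the 29 (20.7%) against 1.74%, those 6 being H2A and H2B genes. Windows of facing genes overlap, so these counts are not independent, and a match of letters is not a measured binding site.

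Genes that act with the Hist genes were compared as lists, each as its count of calls beside the background given above. Of 11 tested histone genes without Hist symbols, H1f0 rose (log2 fold change 0.47, adjusted p 0.0492) and H2afj fell (log2 fold change -0.23, adjusted p 0.0361). This list had a median log2 fold change of 0.11 and summed to between 1021 and 1073 CPM in WT and between 1118 and 1164 CPM in KO lungs, above the WT range where the core Hist genes were below it. Neither call held without WT4, WT5, WT6 or KO6, nor did that of H2afj without KO5. H1f0 is the linker histone typical of cells that no longer divide, and its CPM was 86.2, 84.6 and 81.1 in WT and 136, 99.2 and 115 in KO lungs.

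Of 19 tested genes for the transcription and processing of histone RNA, 1 was called, a share near the 6.39% of all genes tested. This was Zcchc11, an enzyme that adds uridines to RNA ends, which rose (log2 fold change 0.54, adjusted p 0.0401), and none was called lower. That call was lost without WT4, WT5, WT6 or KO6. The list's median log2 fold change was -0.0036, and its summed CPM ranges overlapped (951 to 962 in WT, 930 to 1012 in KO). Slbp had a log2 fold change of 0.13 (SE 0.0849) and Npat, the activator of histone gene transcription, of -0.0016 (SE 0.0679). Of 20 histone chaperones, none was called by edgeR's test. The lowest adjusted p were those of Daxx (0.118) and Chaf1b (0.175), with log2 fold changes of 0.20 and 0.33.

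The genes of S phase and cell division had higher summed CPM in KO lungs, opposite in sign to the core Hist genes. The list of 29 summed to 346, 354 and 422 CPM in WT and 433, 502 and 437 CPM in KO lungs, without overlap. Of the 29, 26 had a log2 fold change above 0, with a median of 0.34. On this list 2 genes were called, each higher, a share near the 6.39% of all genes tested. Over all genes, 3.72% were called higher. The genes called were Tk1, a thymidine kinase (log2 fold change 0.90, adjusted p 0.0325 in edgeR's test), and Mcm5, a subunit of the replicative helicase (log2 fold change 0.64, adjusted p 0.0335). Neither call held without any one of WT4, WT5, WT6 and KO6.

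Markers of blood cells also moved with genotype, and their part in the values of the Hist genes was not tested. All 7 tested red cell genes had a log2 fold change below 0, and 5 were called lower, Hba-a2, Hbb-bs, Hbb-bt, Hba-a1 and Alas2, with log2 fold changes from -0.95 to -0.85. The count of red cell calls was 3 without WT4 and 0 without WT5, WT6 or KO6. The list summed to 2232, 2281 and 2132 CPM in WT and 1038, 1414 and 1073 CPM in KO lungs, and none of its genes was at 0. The megakaryocyte and platelet list summed to between 93.6 and 96.5 CPM in WT and between 63.0 and 84.4 CPM in KO lungs, with 8 of 8 log2 fold changes below 0 and none called. Within the KO group, KO5 had the highest red cell sum and the lowest platelet sum, and its core Hist sum of 73.5 CPM lay between those of KO4 (71.4 CPM) and KO6 (77.5 CPM).

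Among white blood cell markers, those of monocytes were higher. Of 10 monocyte genes, 9 were called higher, led by Plac8, Spn, Cx3cr1, Ccr2 and Cd300e. The list summed to between 1678 and 1724 CPM in WT and between 1801 and 2094 CPM in KO lungs. Most of this sum was Ace, the gene not called, with means of 1448 CPM in WT and 1462 CPM in KO lungs. Its log2 fold change was 0.014 (SE 0.0851). Of 7 tested neutrophil genes, S100a9, S100a8 and Retnlg were called higher and none lower, while Ltf and Ngp had log2 fold changes of -0.39 (SE 0.999) and -0.34 (SE 0.564). The neutrophil sums, from 64.2 to 160 CPM in WT and from 105 to 175 CPM in KO lungs, overlapped. Without WT5, no monocyte or neutrophil gene was called, and without WT6, no monocyte gene and 1 neutrophil gene. Without WT4 or KO6, 5 monocyte genes and no neutrophil gene were called. The B cell list summed to between 141 and 154 CPM in WT lungs and to 266, 1127 and 318 CPM in KO lungs, with none called from all 6 libraries and 8 of 10 called higher without KO5 or without KO4. Plasma cell sums ran from 303 to 507 CPM in WT and from 475 to 915 CPM in KO lungs. T cell sums ran from 47.5 to 54.0 CPM in WT and from 53.0 to 139 CPM in KO lungs. The groups overlapped on both lists, with none called on either list, and 4 T cell genes were called higher without KO4. Sdc1 held most of the plasma cell sum in WT lungs, with a log2 fold change of -0.14 (SE 0.105). The other plasma cell genes had log2 fold changes from 1.10 to 1.57, with KO higher and no overlap.

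KO5 thus stood apart in B cell markers and depth. Without it, the log2 ratios of the class sums were -0.32 for H2A, -0.48 for H2B, -0.93 for H3 and -0.77 for H4, against -0.32, -0.49, -0.97 and -0.72 with all libraries. The lung list, with 8 of 8 log2 fold changes below 0 and Cldn5, an endothelial junction gene, called lower, summed to between 47025 and 56679 CPM in WT and between 36614 and 47906 CPM in KO lungs, and its surfactant gene Sftpc reached at least 9327 CPM in every library. The call of Cldn5 was lost with any 1 library left out. A list of 10 RNAs that lack a poly(A) tail was chosen after the data were seen. It summed to between 2.74 and 4.72 CPM in WT and between 2.895 and 4.05 CPM in KO lungs, and the groups overlapped. Only 2 of the 10 had enough reads to be tested, Rpph1 and Rn7sk. Their log2 fold changes were -0.70 (SE 0.285) and -0.23 (SE 0.293), and neither was called. The groups did not overlap for Rpph1, with KO lower, and overlapped for Rn7sk. This sum thus rests on few reads.

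**Figure D5:**
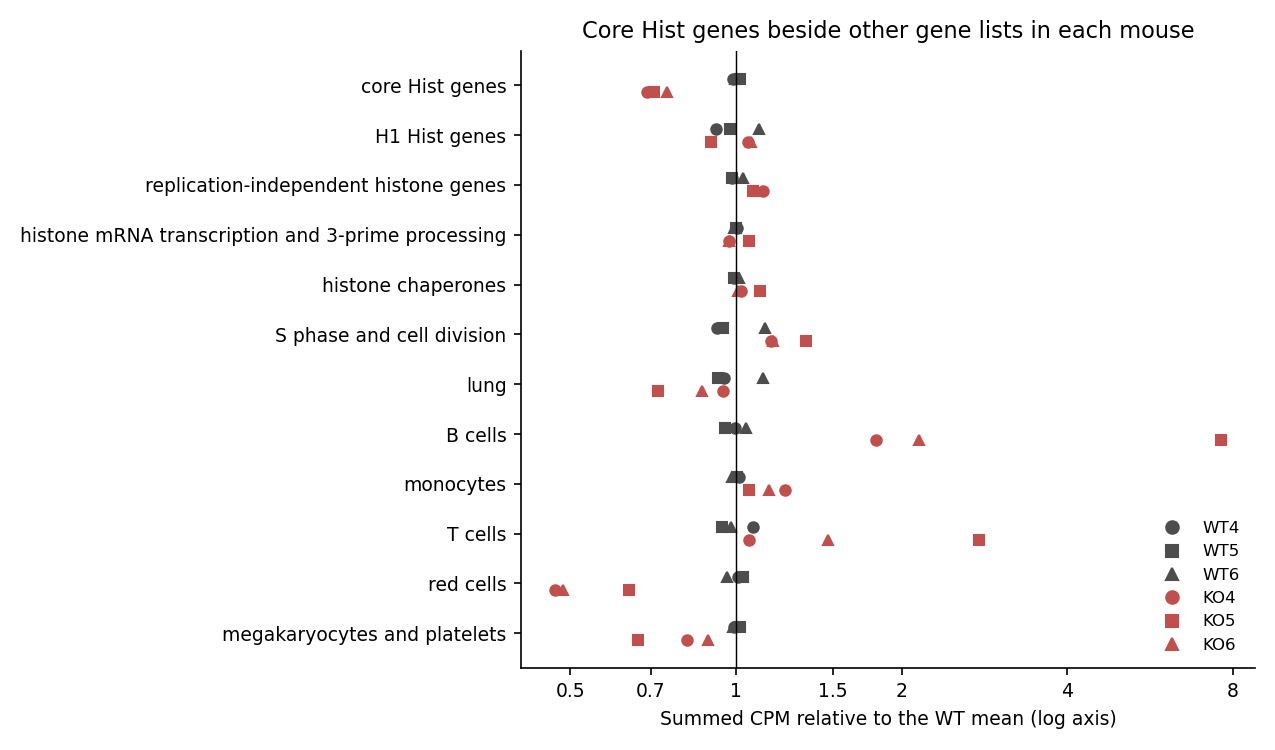
Summed CPM of each gene list in each lung relative to its mean in WT lungs (log axis, vertical line at 1). The core Hist genes lie below 1 in all KO lungs, as do red cell and platelet genes, while S phase genes and B cell and monocyte markers lie above 1.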

How the data were processed

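RNA from 6 mouse lungs, 3 WT and 3 KO, was sequenced by the authors with a stranded mRNA kit, in 1 library per mouse. According to the submitters' processing notes and the methods, reads were trimmed with Trimmomatic 0.36, aligned to GRCm38 with STAR 2.5.3a and counted per gene with HTSeq 0.6.0, with Picard 2.9.0 also named. The deposited values are raw read counts per Ensembl gene in 1 table for 47069 genes, without normalization. The annotation release, the strand setting and the handling of reads that fit several places are not given in the sources used here. Libraries were grouped by their titles, and no column of the table was left unused. Total counts lay between 19981428 and 46796908 per library, which sets the precision of low counts, and intervals and floors cover counting error only.

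Counts were tested in R 4.3.3 with edgeR 4.0.16 (glmQLFit and glmQLFTest, TMM, default filterByExpr, minimum count 10 and minimum total 15), with no covariate, and p was adjusted by Benjamini-Hochberg over 17037 genes. SE is the size of the log2 fold change divided by the square root of F. Fits were tested on simulated data. Positions and transcripts came from GENCODE M21 (GRCm38), which placed 33 members by ID and Hist1h2bh by symbol, and promoters from RefSeq. Figures were drawn with Matplotlib 3.10.9.

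The members and lists were chosen with earlier results of these data known. Text names every called member, the 2 members with the highest mean CPM in each class, Zpbp2, and up to 5 called genes per list. It also names the 5 tested members with the highest and the 5 with the lowest log2 fold change. Hist1h2be and Hist1h2bn were added so that every tested member appears. Slbp, Npat, Daxx, Chaf1b, Sftpc, Hfe, Ltf, Ngp, Ace, Sdc1, Rpph1, Rn7sk, Hist1h2ah, Hist1h3b, Gm20632, Gm20633 and Gm20634 were also named outside this rule. Alternatives were other scalings and filters, edgeR's exact test, DESeq2 1.42.0, the replicate number as a block, a fold change threshold, and each library left out in turn.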

Additional observations from a re-analysis of the deposited data

How the results depend on the processing

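The count of 3 members called lower stayed between 2 and 4 under other scalings, both other filters, DESeq2 and edgeR's exact test. That is within 1.5 times, but the members called were not the same throughout. Hist1h2bc was called under each of these settings. Hist1h4h entered with DESeq2 size factors, with upper-quartile scaling, with at least 10 counts in every library and with the exact test. With at least 10 counts in every library, 11 members were tested, and Hist1h3d and Hist1h2ad were not among them. DESeq2's Wald test called Hist1h2bc and Hist1h2be and gave no adjusted p for 8 of the 18, Hist1h3d and Hist1h2ad among them. Without a filter, Hist1h4j was called besides the 3, at an adjusted p of 0.0418 over 28625 genes. With a mouse left out, between 0 and 2 members were called, and no call was made without WT5 or without WT6. No call of a member turned its sign; of members not called, Hist1h1c ran from -0.042 to 0.098 and Hist1h2bg from -0.20 to 0.12 in log2 fold change with a mouse left out.

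The labels give no pairing of WT and KO mice by replicate number. Deviations of same-numbered libraries from their group means correlated at -0.05, -0.17 and -0.0196 across genes. Those of libraries with unlike numbers ran from -0.254 to 0.29. With so few libraries, these values cannot show whether mice were paired. With the replicate block, 0 members were called, and 36 genes lower and 30 higher in the whole table.

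The median log2 fold change of the class became -0.77 for H2A and -0.58 for H3 when every member was included without a filter. With a mouse left out it ran from -0.64 to -0.23 for H2A and from -0.51 to -0.16 for H2B. Without its member with the most counts, the log2 ratio of the class sum was -0.57 for H1, -1.10 for H2A, -0.25 for H2B and -1.74 for H3. The sums of H2A, H2B, H3 and H4 kept their direction in every alternative run, while that of H1 ran from -0.048 to 0.083 with a mouse left out.

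Counts called on the comparison lists were also taken with a mouse left out. For histone genes without Hist symbols they ran from 0 to 1 lower and from 0 to 2 higher. Calls higher ran from 0 to 1 for processing genes, from 0 to 2 for S phase genes and from 0 to 8 for B cells. They ran from 0 to 8 for monocytes, from 0 to 3 for neutrophils and from 0 to 4 for T cells. Calls lower ran from 0 to 6 for red cells. The lung list had 0 in each of these fits. With the replicate block, histone genes without Hist symbols, processing, S phase, lung and neutrophil genes had 0 calls, monocytes 1 and red cells 2. With DESeq2 size factors, histone genes without Hist symbols had 0 called higher. The cause of these changes was not tested. Depth limits the 16 untested members to counts near the floor.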
